A study of Chlamydomonas reinhardtii with 9 samples.

Results

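Among 946 windows of 100 kb on 14 nuclear chromosomes of the unicellular green alga Chlamydomonas reinhardtii, 44 windows held peaks of 2 epitope-tagged chromatin proteins, SKIP and PAF1, at a mean of at least 29 peaks per list. These peak-dense windows are 4.65% of the windows and held 8448 of the 98672 peaks that the 6 lists place on the 14 chromosomes, out of 117666 peaks in all. The windows were chosen by these peak counts, averaged over all 6 lists, on every chromosome except 14, 15 and 16. Their density is therefore a description, and no test of it in the same lists is given. The peaks come from chromatin immunoprecipitation with an antibody against the HA tag followed by sequencing. The lists come from 3 libraries of a SKIP-HA line, given with genotype skip, and 3 libraries of a PAF1-HA line, given with genotype paf1, both in strain CC5325. The labels do not say whether these genotypes are mutations that the tagged gene is meant to complement. The labels do not give the promoter of either tagged protein, the number of clones behind a line or whether replicates are separate cultures, so p-values reflect no more than the variation among the 6 libraries, and this may be technical. Peaks of the 3 wild-type libraries, which lack the tag, were not analysed here, and the background of the antibody is not given beside the values.

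PAF1 gives its name to a protein complex that moves along transcribed genes together with the elongating RNA polymerase II and helps place histone marks of active chromatin there. SKIP is a protein with an SNW domain that is found in the spliceosome and also acts with transcription factors. A peak is a stretch of the genome where a caller found more sequenced fragments than its background model allows, and a peak count says where binding was called, not how strong it was. No gene annotation of the build behind the peaks was used, and the windows are described by position only.

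Almost every interval was 400 bp wide, no score was given, and each library had its own list. SKIP-HA lists held 19709, 22305 and 24680 peaks and PAF1-HA lists 16329, 16998 and 17645, so that list length differed between the proteins without overlap. The read depth behind the lists is unknown. In both proteins the labels of replicate 3 have other fields than those of the earlier replicates, and replicate 3 was handled as a possible batch.

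The dense windows held a mean of 32 peaks per list, with a median of 31, against a mean of 17.4 over all 946 windows (SD 6.66). SKIP-HA lists had 31.0, 35.5 and 38.1 peaks per dense window, and PAF1-HA lists had 28.0, 28.6 and 31.0. In the remaining windows SKIP-HA lists had 16.8, 19.0 and 21.1 peaks per window and PAF1-HA lists 13.8, 14.4 and 14.9. Over the 6 lists and 44 windows the lowest count was 20 and the highest 53.

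**Figure D1:**
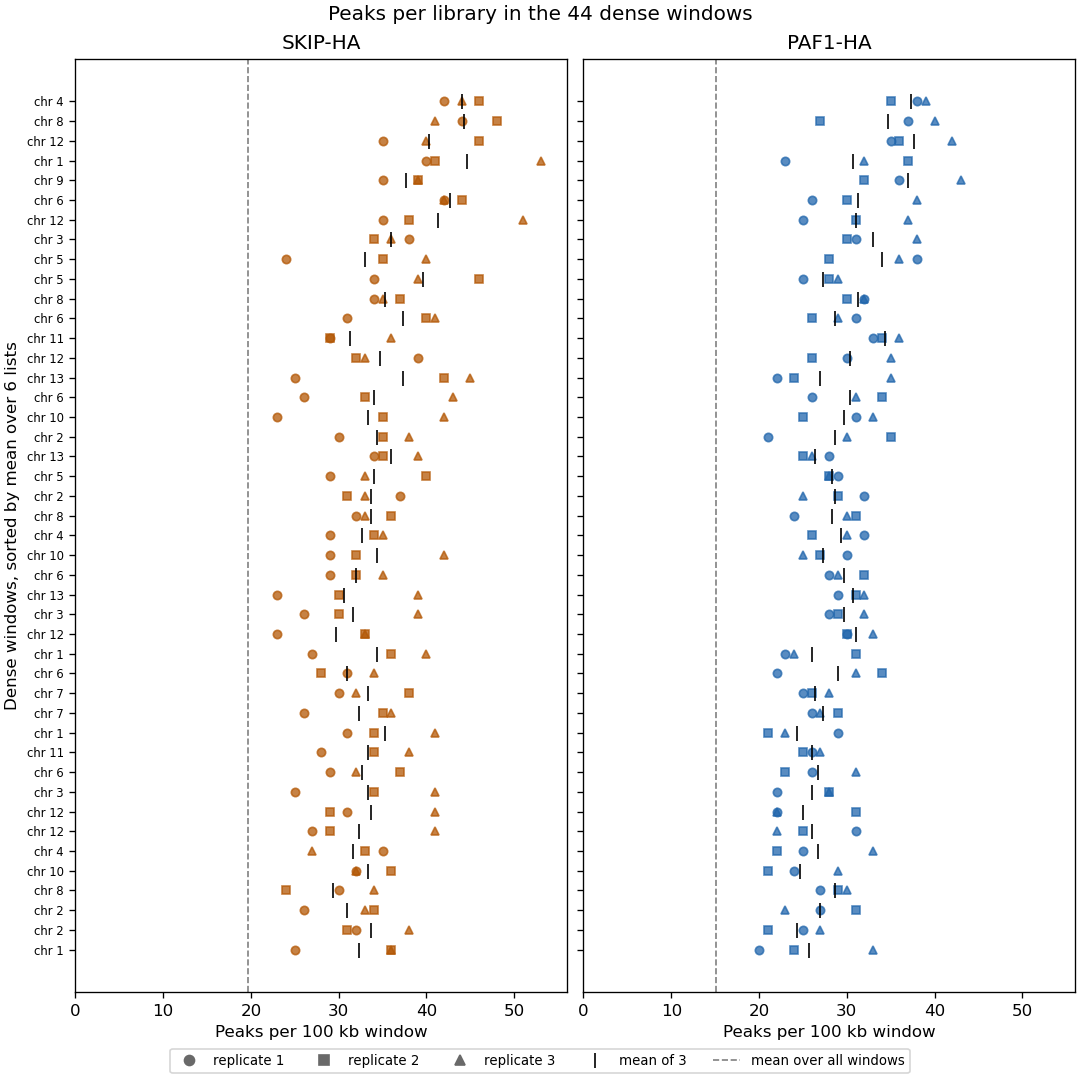
Peaks per 100 kb window (horizontal axis) for the 44 dense windows, sorted by the mean over 6 lists, with SKIP-HA libraries on the left and PAF1-HA libraries on the right; symbols are replicates, black ticks the mean of 3 and dashed lines the mean over 946 windows. Every symbol lies right of the dashed line, with 20 peaks as the lowest count.

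The densest window lay on chromosome 4 at 1800001 to 1900000. It held 42, 46 and 44 peaks in SKIP-HA lists and 38, 35 and 39 in PAF1-HA lists. Next came chromosome 8 at 4000001 to 4100000, with 44, 48 and 41 SKIP-HA peaks and 37, 27 and 40 PAF1-HA peaks. In both of these windows every SKIP-HA count lay above every PAF1-HA count, on chromosome 8 by a single peak. The first window of chromosome 12, at 1 to 100000, had 35, 46 and 40 SKIP-HA peaks and 35, 36 and 42 PAF1-HA peaks, with overlapping groups. On chromosome 1 at 4900001 to 5000000 there were 40, 41 and 53 SKIP-HA peaks and 23, 37 and 32 PAF1-HA peaks. Chromosome 9 at 300001 to 400000 had 35, 39 and 39 SKIP-HA peaks and 36, 32 and 43 PAF1-HA peaks. In the window of chromosome 1 the groups stood apart, and in that of chromosome 9 they overlapped although the SKIP-HA lists are longer.

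At the threshold, 5 windows had a mean of exactly 29. They start at 600001 on chromosome 1, at 1500001 and 5100001 on chromosome 2, at 3400001 on chromosome 8 and at 100001 on chromosome 10. Just outside lay 2 windows of chromosome 6, at 8000001 and 3400001, with a mean of 28.8 each, and a further window of chromosome 6 at 7100001 with 28.7.

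Whether the density holds in lists that did not choose the windows was asked by choosing the windows on 5 lists and reading the library left out. In all 6 libraries the left-out list was denser in the chosen windows than in the remaining ones. SKIP-HA lists had 1.78-fold, 1.84-fold and 1.78-fold as many peaks per chosen window, and PAF1-HA lists 1.92-fold, 1.94-fold and 1.99-fold. The mean was 1.88 ± 0.0876 (SD, n = 6), with a two-sided exact sign-flip permutation p of 0.031, the smallest that 6 libraries allow. Each library helped to choose the windows of the other rounds, so the 6 values are not independent. The p-value is therefore not that of 6 separate experiments. None of the 31 to 55 windows chosen in each round was at or below the mean over 946 windows in the left-out list. Choosing across proteins gave similar folds: the 44 windows highest in SKIP-HA lists had 27.4 ± 1.62 PAF1-HA peaks, against 14.46 ± 0.594 in the remaining windows, and the 44 highest in PAF1-HA lists had 33.1 ± 3.32 SKIP-HA peaks, against 19.1 ± 2.20 (SD, n = 3). The choices of the 2 proteins had 25 of 44 windows in common.

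Dense windows were mostly solitary. They formed 42 runs, of which 40 were single windows and 2 were pairs, so the longest run was 200 kb. One pair spanned 600001 to 800000 of chromosome 1, and the other pair 400001 to 600000 of chromosome 3. In the first pair, SKIP-HA lists had 25, 36 and 36 peaks and then 31, 34 and 41, and PAF1-HA lists had 20, 24 and 33 and then 29, 21 and 23. In the second pair, SKIP-HA lists had 38, 34 and 36 peaks and then 26, 30 and 39, and PAF1-HA lists had 31, 30 and 38 and then 28, 29 and 32. Counted from both sides, 4 of the 87 windows next to a dense window were themselves dense, or 4.60%, against 4.67% of the windows next to a remaining window. Dense windows thus stood beside each other no more often than they stood beside other windows.

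The windows next to a dense window held a mean of 18.9 peaks per list, close to the 17.4 of all windows, and ranged from 4.17 to 34.5. For 33 of the 87 the mean was under that of all windows. At a distance of 2 windows the mean was 16.8 and at a distance of 5 it was 18.0. At the resolution of 10 kb the density dropped within the first step outside the window. SKIP-HA lists had 3.48 ± 0.360 peaks per 10 kb inside the dense windows, 2.05 ± 0.331 in the first 10 kb outside and 1.97 ± 0.225 over all windows (SD, n = 3). PAF1-HA lists had 2.92 ± 0.160 inside, 1.70 ± 0.0937 in the first 10 kb outside and 1.51 ± 0.0635 over all windows (SD, n = 3). The sharp step sits at the window border because the window was chosen for its count, and the measured part of it is the low level outside.

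**Figure D2:**
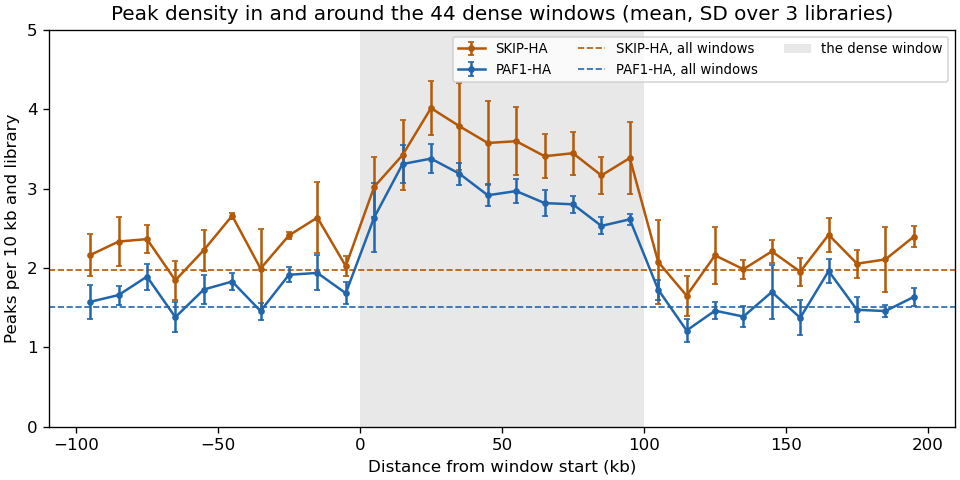
Peaks per 10 kb and library (vertical axis) against the distance from the start of the dense window (horizontal axis, kb), as the mean over 44 windows with the SD over 3 libraries, and dashed lines for all 946 windows. Inside the shaded window SKIP-HA averaged 3.48 and PAF1-HA 2.92 peaks per 10 kb, and in the first 10 kb outside 2.05 and 1.70.

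The windows were sensitive to where the grid was laid. A grid that started 50 kb later gave 42 dense windows in 40 runs, and these covered 26.1% of the 4400 kb of the original 44. A shifted window can cover no more than 50 kb of a solitary original window, so these 42 could not have covered all of it. A window of 200 kb at the same density gave 6 dense windows of 477, and a window of 50 kb gave 188 of 1886, or 162 runs. Density at this level was thus rarely sustained over 200 kb.

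Within the windows, stretches at the density of the rule were short. Runs of adjacent 10 kb bins with at least 2.9 peaks per list, which is the density of the window rule, were counted. That level lies close to the mean density of the dense windows, so counting variation alone can break a run, and its part was not tested. The same counts chose the windows, so the comparisons with remaining windows are descriptions. Of the bins in dense windows, 52.3% reached it, against 18.3% in the remaining windows, and a dense window had a median of 5 such bins, with 3 to 8 as the range. The longest run of such bins that touched a dense window had a median of 30 kb and a maximum of 60 kb, and in 5 of the 44 windows that longest run reached past the border. The 2 runs of 60 kb spanned 1830001 to 1890000 of chromosome 4 and 8620001 to 8680000 of chromosome 6. Runs that touched dense windows averaged 22 kb over 110 runs, and the 1181 runs elsewhere averaged 13.7 kb with a maximum of 50 kb. In 15 of the 44 dense windows at least one 10 kb bin held no peak in any list, and the densest bin held a median of 21.0% of the window's peaks.

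The densest window shows this layout. From 40 to 50 kb after its start it held 9, 6 and 11 SKIP-HA peaks and 7, 7 and 8 PAF1-HA peaks. From 10 to 20 kb it held 1, 0 and 1 SKIP-HA peaks and no PAF1-HA peak. From 20 to 30 kb it held 4, 6 and 5 SKIP-HA peaks against 1, 0 and 0 PAF1-HA peaks, the stretch of the window in which the proteins were farthest apart. That stretch was chosen after its values were seen.

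**Figure D3:**
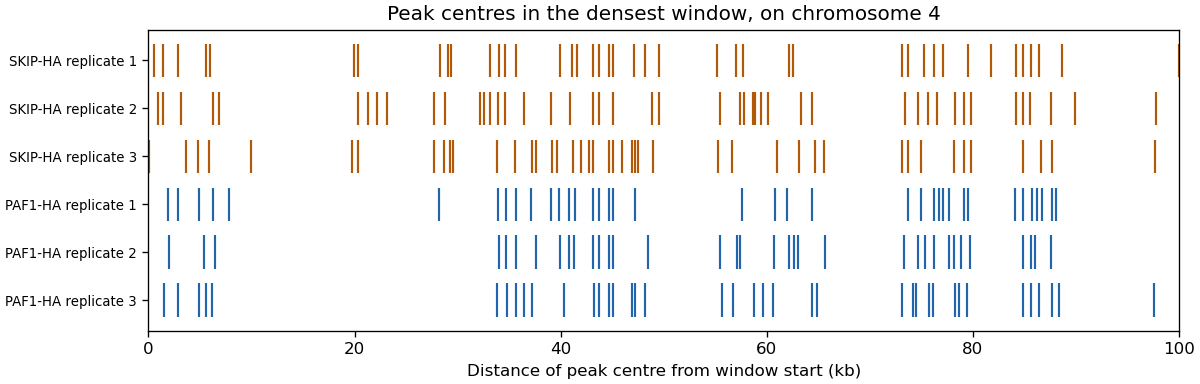
Centres of the peaks in each of 6 lists (rows, SKIP-HA above PAF1-HA) along the densest window, on chromosome 4, as the distance from the window start (horizontal axis, kb). Blocks and gaps lie at similar places in all rows, while from 20 to 30 kb SKIP-HA lists hold 15 peaks and PAF1-HA lists 1.

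Spacing within a list followed the same picture. The median distance from a peak to its nearest neighbour in the list was 804 ± 48.4 bp for SKIP-HA in dense windows, against 938 ± 66.8 bp in the remaining windows, and 803 ± 28.8 bp for PAF1-HA in dense windows, against 1031 ± 17.7 bp in the remaining windows (SD, n = 3). Even spacing at the same counts would place SKIP-HA peaks 2892 bp apart in dense and 5319 bp apart in remaining windows, and PAF1-HA peaks 3435 bp and 6966 bp apart. Between the window classes the density changed by more than the distance to the nearest neighbour did. Peaks of a list that overlap each other by at least 1 bp were counted as separate. Merging them first left 18 of the 44 windows at or above the threshold of 29.

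Consensus regions are merged peaks found in at least 2 of the 3 libraries of a protein, and those with gaps of no more than 1 kb were joined into domains. SKIP-HA had 261 domains of several regions in dense windows, or 5.93 per window, against 2.76 in remaining windows. PAF1-HA had 220, or 5 per window, against 1.93. Their lengths differed less than their number. The median was 2165 bp in dense and 1891 bp in remaining windows for SKIP-HA, and 2060 bp against 1855 bp for PAF1-HA. Domains longer than 5 kb made up 7.28% of the SKIP-HA domains in dense windows, 19 of 261, against 3.05% elsewhere, and 5.45% of the PAF1-HA domains, 12 of 220, against 3.39%. The longest domains of the 14 chromosomes lay outside the dense windows, at 15096 bp for SKIP-HA and 9794 bp for PAF1-HA. No test is given, since closer peaks join more easily at any fixed distance.

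The longest SKIP-HA domain in a dense window spanned 9024 bp on chromosome 6 at 8644597 to 8653620 with 9 consensus regions, inside the 60 kb block named above. A further SKIP-HA domain of 8671 bp lay on chromosome 6 at 497701 to 506371. The longest PAF1-HA domain spanned 8875 bp on chromosome 13 at 3489814 to 3498688 with 8 regions, in a window where a single 10 kb bin held 33.2% of the peaks, the highest share of the 44. Each of these 3 domains overlapped a domain of the other protein, while a SKIP-HA domain of 7240 bp on chromosome 12 at 7888084 to 7895323 overlapped none.

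At close range, dense windows had more PAF1-HA peaks around SKIP-HA peaks than remaining windows, and nearly as many SKIP-HA peaks around PAF1-HA peaks. Both sides count nearly the same pairs of peaks, divided by the peak number of each protein. The difference between the sides therefore follows the ratio of the peak numbers. Around a peak of one protein, peak centres of the other within 200 bp were counted per kb and list. Around SKIP-HA peaks there were 0.835 ± 0.0315 PAF1-HA peaks per kb in dense windows, against 0.762 ± 0.0530 in remaining windows, and around PAF1-HA peaks 0.996 ± 0.0451 SKIP-HA peaks per kb in dense windows, against 1.00 ± 0.0337 in remaining windows (SD, n = 3). Over the 6 libraries the mean was 0.916 in dense and 0.882 in remaining windows, with all 3 SKIP-HA libraries and 1 PAF1-HA library higher in dense windows and 2 PAF1-HA libraries lower. The local level, taken at 2 to 10 kb from the same peaks, was 0.353 ± 0.0339 per kb in dense and 0.210 ± 0.0318 in remaining windows (SD, n = 6).

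Relative to the local level, other-protein peaks within 200 bp were therefore 2.59-fold more frequent in dense windows and 4.20-fold more frequent in remaining windows. SKIP-HA libraries had 2.65-fold, 2.62-fold and 2.51-fold in dense windows, against 4.51-fold, 4.16-fold and 3.94-fold in remaining windows. PAF1-HA libraries had 2.70-fold, 2.64-fold and 2.46-fold in dense windows, against 4.35-fold, 4.16-fold and 4.05-fold in remaining windows. All 6 libraries had the lower fold in dense windows, without overlap of the window classes. The denominator of this fold is close to the density that chose the windows, so the difference is a description with no test. The mean log2 difference was -0.69, and between partners of the same protein it was also -0.69. The fold was thus lower in dense windows for replicates of one protein as well as between the proteins. Counted as a difference, other-protein peaks within 200 bp beyond the local level numbered 22.6 ± 2.58 per 100 peaks and list in dense windows. In remaining windows they numbered 26.9 ± 4.30 (SD, n = 6), and the value in dense windows was lower in 6 of 6 libraries. The difference subtracts the same local level, which is tied to the window rule, so it is a description too.

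**Figure D4:**
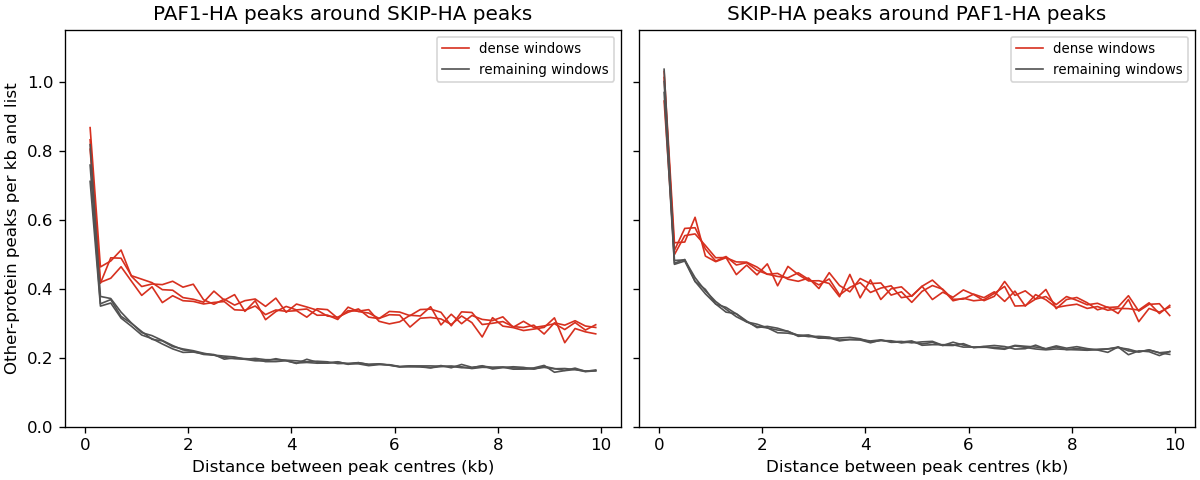
Other-protein peaks per kb and list (vertical axis) against the distance between peak centres (horizontal axis, kb, bins of 200 bp), around SKIP-HA peaks on the left and PAF1-HA peaks on the right; each line is 1 library. Within 200 bp the means over 6 libraries are 0.915 in dense and 0.882 in remaining windows, and the classes part at larger distance, with 0.343 in dense and 0.216 in remaining windows just under 5 kb.

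Over the range of densities the local level followed the density, as the classes require. From the 150 windows with a mean of 5 to 12 peaks to the 44 dense windows, the local level was 0.108, 0.160, 0.200, 0.242, 0.297 and 0.353 other-protein peaks per kb in turn, while the mean level within 200 bp lay between 0.862 and 0.916 in every class. This mean joins counts around SKIP-HA peaks and counts around PAF1-HA peaks. Both count nearly the same pairs of peaks, divided by the peak number of the protein in the centre. They moved apart as the ratio of the peak numbers changed between classes, so their opposite directions are not a separate difference in position. Around SKIP-HA peaks the level was 0.868, 0.833 and 0.805 in dense windows, against 0.748, 0.693 and 0.657 in windows of 5 to 12 peaks, higher in 3 of 3 libraries. Around PAF1-HA peaks it was 1.03, 1.01 and 0.945 in dense windows, against 1.05, 1.05 and 0.971 in windows of 5 to 12 peaks, lower in 3 of 3 libraries. The fold over the local level was 7.96 ± 0.505, 5.57, 4.45, 3.67, 2.95 and 2.59 ± 0.0923 in the same order (SD over 6 libraries). The local level is nearly the density that defines the classes, so the order of these folds is a description.

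Merging the peaks of all 6 lists gave 2419 regions in the dense windows, or 55.0 per window, against 32.1 per remaining window. All 6 libraries had a peak in 240 of these regions, or 9.92%, against 7.73% in remaining windows, and a single library had one in 765, or 31.6%, against 36.0%. Regions with peaks of both proteins made up 55.1% in dense and 49.6% in remaining windows. Merged regions covered 38.1% of the dense windows and 20.7% of the remaining ones, and wider coverage raises overlap by itself. Regions with a peak in 3 SKIP-HA and 0 PAF1-HA libraries numbered 54, or 2.23%, against 2.52% in remaining windows, and the opposite kind 30, or 1.24%, against 0.795%.

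Of 1161 SKIP-HA consensus regions in dense windows, 654 shared at least 1 bp with one of PAF1-HA, or 56.3% (95% Wilson interval 53.5 to 59.2), against 50.6% (49.8 to 51.5) in remaining windows. Of 984 PAF1-HA consensus regions, 655 shared at least 1 bp with one of SKIP-HA, or 66.6% (63.6 to 69.4), against 65.1% (64.2 to 66.1). The SKIP-HA intervals lay apart and the PAF1-HA intervals overlapped. These intervals cover counting error only. Dense windows also held more consensus regions of each protein per window than remaining windows, at nearly the same width. A higher number of regions raises overlap by itself, and its part in these values was not tested. With a peak required in all 3 libraries the SKIP-HA values were 39.6% in dense and 38.8% in remaining windows, a far smaller gap, and the PAF1-HA values were 49.1% and 49.5%, with the order turned round.

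Sharing varied widely among the 44 windows. The percent of merged regions with a peak in all 6 libraries had a median of 8.47% and ran from 0 to 23.4%. It was highest on chromosome 7 at 4900001 to 5000000, with 11 of 47 regions, followed by 21.3% on chromosome 2 at 600001 and chromosome 5 at 1300001, with 10 of 47 regions each. The lowest values were 0 of 64 regions on chromosome 2 at 5100001, which allows up to 4.69%, then 2.94% on chromosome 5 at 500001 and 3.28% on chromosome 4 at 1200001. In the window without such a region, 6 of 20 SKIP-HA and 6 of 17 PAF1-HA consensus regions overlapped the other protein, the lowest shares of the 44 for both. The highest share was 22 of 23 PAF1-HA consensus regions, or 95.7%, on chromosome 13 at 100001 to 200000.

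At the finest scale, 93 regions in dense windows had exactly 1 peak in each of the 6 lists, and in 30 of them the outermost peaks lay within 50 bp of each other. On chromosome 3, in the paired windows, such regions at 553730 to 554141 and 486625 to 487042 had peaks within 12 and 18 bp. Chromosome 11 at 1010916 to 1011330 had peaks within 15 bp. A spread of 19 bp was found on chromosome 5 at 1326208 to 1326626. At the other end, the widest merged region, on chromosome 2 at 622802 to 627063, joined 27 peaks of all 6 lists over 4262 bp.

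The proteins differed in how much of their lists fell into dense windows. SKIP-HA lists had 8.27% (95% Wilson interval 7.86 to 8.70), 8.34% (7.95 to 8.74) and 8.08% (7.72 to 8.46) of their peaks on the 14 chromosomes there. PAF1-HA lists had 9.02% (8.55 to 9.51), 8.81% (8.35 to 9.28) and 9.19% (8.73 to 9.66). The groups did not overlap: the means were 8.23% ± 0.132 for SKIP-HA and 9.01% ± 0.190 for PAF1-HA, a difference of -0.779 percentage points (SD, n = 3, two-sided exact permutation p = 0.1, the smallest possible). The smaller share was thus that of SKIP-HA, although the longer SKIP-HA lists weigh more in the mean that chose the windows. In windows with a mean under 12 the order was the opposite, with 9.45% ± 0.0529 of SKIP-HA peaks and 8.31% ± 0.0919 of PAF1-HA peaks (SD, n = 3, exact permutation p = 0.1). SKIP-HA lists thus had the smaller share in dense windows and the larger share in windows with a mean under 12. The counts of these same lists set both classes. The exact permutation p of 0.1 is the smallest possible in each comparison. The tests therefore cannot decide whether SKIP-HA peaks were spread more evenly over the windows. List length and protein cannot be told apart here.

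Within replicates 1 and 2, with windows chosen on those 4 lists, the difference was -0.463 percentage points over 30 windows, without overlap of the groups (exact permutation p = 0.333, the smallest that 2 against 2 libraries allow); replicate 3 is 1 library per group. With windows of 200 kb it was -0.111 over 6 windows and the groups overlapped.

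**Figure D5:**
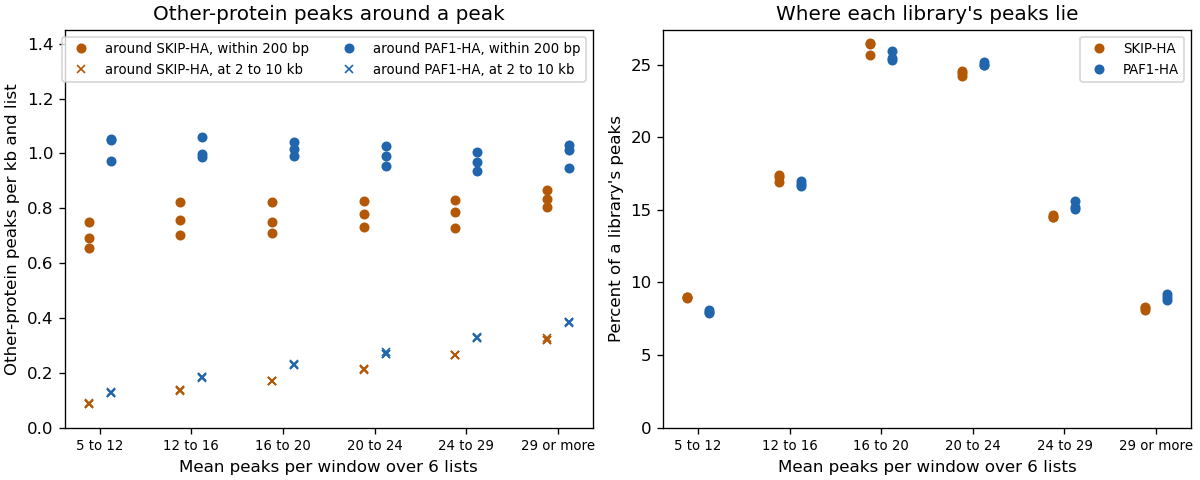
Left, other-protein peaks per kb and list around the peaks of each library, within 200 bp (circles) and at 2 to 10 kb (crosses), for windows grouped by mean peaks over 6 lists. Right, percent of each library's peaks in the same classes, where SKIP-HA lies above PAF1-HA at 5 to 12 peaks (8.98% and 7.98%) and below it at 29 or more (8.23% and 9.01%).

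Per window, no dense window passed the test for a difference in share between the proteins. The test was limma over 1068 windows of all 17 chromosomes, on log2 shares of the list, with p-values adjusted by Benjamini-Hochberg over all of them. It called 0 of the 44 dense windows higher in SKIP-HA, where the background was 0.468% of all windows, and 0 higher in PAF1-HA, where the background was 0.0936%. At an unadjusted limma p under 0.05, 4 dense windows were higher in PAF1-HA and 0 in SKIP-HA, against 5.9% and 8.33% of all windows. The lowest adjusted p among the 44 was 0.218 by limma.

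The direction of these ratios leaned to PAF1-HA. The median log2 of the SKIP-HA share over the PAF1-HA share was -0.13 over the dense windows and 0.01 over all windows tested, and 33 of 44 dense windows were negative, against 48.5% of all windows. With 1 library left out the median over dense windows ranged from -0.17 to -0.08, with -0.08 without SKIP-HA replicate 3. Shares stood apart without overlap in 11 dense windows with PAF1-HA higher and in 0 with SKIP-HA higher, where the background was 9.93% of all windows in each direction. In plain counts the longer SKIP-HA lists lay wholly above PAF1-HA in 13 dense windows, with a background of 35.5%, and PAF1-HA lay wholly above SKIP-HA in 0, with a background of 0.375%.

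The lowest ratio was on chromosome 11 at 1000001 to 1100000. It held 29, 29 and 36 SKIP-HA peaks and 33, 34 and 36 PAF1-HA peaks, and the log2 value was -0.52 (SE 0.188), at an adjusted p of 0.218 by limma. Even in plain counts the mean of the longer SKIP-HA lists, 31.3, lay below the 34.3 of the PAF1-HA lists, and the groups overlapped. Next came chromosome 12 at 8900001 to 9000000, with 23, 33 and 33 SKIP-HA and 30, 30 and 33 PAF1-HA peaks and a log2 ratio of -0.46 (SE 0.192), and chromosome 5 at 3500001 to 3600000, with 24, 35 and 40 SKIP-HA and 38, 28 and 36 PAF1-HA peaks and a log2 ratio of -0.44 (SE 0.208). The highest ratios were small, at 0.17 on chromosome 1 at 4900001 (SE 0.207), 0.15 on chromosome 1 at 700001 (SE 0.202) and 0.14 on chromosome 5 at 500001 (SE 0.194), each less than its standard error.

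By position, dense windows were found on 13 of the 14 chromosomes. Chromosomes 6 and 12 had 6 each, chromosome 8 had the highest share with 4 of 46 windows, and chromosome 17 had 0 of 70, although its window at 3200001 to 3300000 came close with a mean of 28.3. Of the 44, 22 lay within 1000 kb of the first position or of the last peak of their chromosome, or 50%, against 30.2% of the remaining windows. Of the 28 windows at a very end 1 was dense, the first window of chromosome 12, where the share over all 946 windows was 4.65%. The last window of a chromosome stops at its last peak and can be shorter than 100 kb. Mappability and gene density along the chromosomes were not measured here, and their part in these positions was not tested.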

How the data were processed

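The deposited unit is the position, the start and end of 1 peak on a named sequence, in 1 list per library, per the file contents. Of tools, Bowtie2 and HOMER appear for every sample and MACS3 for replicates 1 and 2 of each protein, per the submitters' processing notes, without version or role. The sources used here do not give the genome build, the calling threshold or the control library. Coordinates are 1-based positions in the build of the files, with starts read as counted from 0, and may be off by 1 base if the files count from 1. The version 5.5 gene table was not used, as the files name no build, so promoters, genes and sequences were not analysed here.

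Peaks were counted by midpoint in windows of 100 kb from position 0 to the last peak, in Python 3.11.15 (pandas 2.3.3, numpy 2.4.6), permuted with scipy 1.17.1 and plotted with matplotlib 3.10.9. Windows of all 17 chromosomes with a mean of at least 5 peaks entered limma 3.58.1 (R 4.3.3) on log2 of the share of the list with 0.5 added to the count. Overlap needed 1 bp. A test planned for the fold over the local level is not reported, because its denominator is tied to the window rule. Named windows are the 5 densest, the runs, the 5 at and 3 below the threshold, and the 3 highest and 3 lowest by log2 ratio and by regions shared by all libraries. The rule, the lists and the tests were chosen with earlier results of these data known. Merging overlapping peaks, the fold taken as a difference, the choice across proteins, and limma with a mean-variance trend were chosen after seeing the values. The limma step and the local fold were tested on simulated data.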

Additional observations from a re-analysis of the deposited data

Results flagged for a closer look

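Chromosomes 14, 15 and 16 lie outside the window rule and drew attention because they also hold dense windows. Of their 183 windows 18, or 9.84%, had a mean of at least 29 peaks, with 4 on chromosome 14, 5 on chromosome 15 and 9 on chromosome 16. Of these, 9 stood next to another dense window, or 50%, against 9.09% of the 44. On chromosome 14, 3 adjacent windows from 3400001 to 3700000 had means of 32.7, 35.7 and 42.7, and the densest of the 18, on chromosome 15 at 1900001 to 2000000, had 43.2.

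Contigs outside the chromosomes were not used in any comparison. They held 123 peaks over the 6 lists, or 0.105% of all peaks.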

How the results depend on the processing

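The smaller SKIP-HA share in dense windows kept its sign under all 15 alternatives run, from -2.04 percentage points with windows of 50 kb to -0.111 with windows of 200 kb. With 1 library left out it ranged from -0.998 to -0.580, and with lists scaled to a common length before the choice it was -0.882. With a replicate block it was -0.779 with an exact sign-flip p of 0.25, the smallest that 3 pairs allow. Same-numbered libraries did not deviate together window by window, with correlations of -0.00353, -0.0322 and 0.00226 over 1068 windows. Shares remove any effect on a whole list, so these values cannot tell whether same-numbered libraries share a culture or a batch. Leaving out 1 library gave 31 to 55 dense windows, while a mean of at least 26 gave 87 and of at least 32 gave 16.

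The limma calls over all 1068 windows, 6 in all, depended on the setting, and 0 of them fell in dense windows under each of the 14 alternatives. There were 15 calls with the replicate block, 10 with replicates 1 and 2, 3 each with a mean of at least 10 peaks, with centring on the median and with the shifted grid, and 2 with the trend, where the lowest adjusted p in a dense window was 0.0544. With 1 library left out there were 0 to 12, namely 12 without PAF1-HA replicate 3, 2 without PAF1-HA replicate 1, 1 without PAF1-HA replicate 2, 1 without SKIP-HA replicate 1, and 0 when the second or the third SKIP-HA library was left out. Centring on the median moved the median ratio of dense windows to -0.18.

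The log2 difference of the local fold, -0.69, stayed below 0 under all 19 alternatives. It was -0.83 at a mean of at least 32, -0.82 with 50 kb and -0.59 with 200 kb windows, -0.85 with overlapping peaks merged, -0.78 with replicates 1 and 2, and -0.37 against windows with a mean of at least 20 but under 29. As a difference it was -4.37 peaks per 100. With 1 library left out it ranged from -0.72 to -0.65. Every alternative takes its local level close to the density that chose the windows, so the common sign is a description. The left-out libraries were 1.78-fold to 2.07-fold denser under the other window rules.

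Overlap of consensus regions in dense windows was 51.2% for SKIP-HA and 60.9% for PAF1-HA at 200 bp, 39.6% and 49.1% with all 3 libraries required, and 69.2% and 81.0% with any library. The percent of a list's peaks in domains was 72.0% in dense and 60.7% in remaining windows, 55.4% and 47.2% when stitched at 500 bp, and 85.5% and 72.5% at 2 kb. Without read depth or scores, a missing peak may be weak or not called.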
